A study of Mus musculus with 9 samples.

Results

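Genes that encode enzymes of mitochondrial fatty acid beta-oxidation were followed by RNA-seq in macrophages sorted from mouse liver. Chosen by symbol, they are 10 of the 23413 genes in the raw count table, namely Cpt1a, Cpt2, Acadm, Acadl, Acadvl, Acadsb, Hadha, Hadhb, Ech1 and Acat1. In beta-oxidation a long-chain fatty acid is bound to carnitine, carried into the mitochondrial matrix and shortened there, by an acetyl-CoA at a time, by a repeating cycle of dehydrogenation, hydration, a further dehydrogenation and thiolysis. The acetyl-CoA and the reduced cofactors feed the citric acid cycle and the respiratory chain. In liver the pathway is best known from hepatocytes, and in macrophages it is often discussed together with alternative activation and oxidative metabolism.

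The study asked how a high-fat diet and diphenyleneiodonium (DPI), used there as an agonist of the receptor GPR3, alter gene expression in Kupffer cells, the resident macrophages of the liver. Male C57BL/6 mice were put on diet at 5 weeks of age and kept on it for 8 weeks. There were 2 libraries from mice on the normal diet (ND, 10 kcal% fat), 3 from mice on a high-fat diet (60 kcal% fat) given vehicle (Veh, PEG3000) and 4 from mice on the same high-fat diet given DPI. Vehicle or 2 mg/kg DPI was injected into the peritoneum from week 3, every 5 days, 6 times in all, so that Veh and DPI mice shared the diet and the injections and differed in the compound, whereas ND differed from both in the diet and, by its labels, had no vehicle or DPI. The treatment text attached to the samples describes instead purified cells exposed to DMSO or 500 nM DPI for 24 h, and the study's methods were followed here. Each library is labelled with a mouse number. The study gives more mice per group than there are libraries, and whether cells of several mice were pooled is not given in the sources used here, so p-values measure the spread between these libraries.

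Library totals lay between 3534325 and 15585775 counts, with a median of 4918629, and 27.0% to 44.5% of them fell on the ribosomal RNA precursor Rn45s. Levels are given as CPM, counts scaled to the library total of the tested genes after TMM normalization, and 3 counts, the floor used for detection, were worth between 0.184 and 1.02 CPM. The cells were sorted as F4/80+CD11b+Gr1low and labelled Kupffer cells, and the data went against that label in part. Vsig4 lay between 0 and 3.00 CPM in all 9 libraries and Clec4f was at 0 in 3 of them, with 0 and 45.6 CPM in ND, 9.32, 0 and 0 in Veh and 13.4, 2.04, 0.742 and 0.612 in DPI, although both mark resident Kupffer cells. Of the 10 Kupffer cell markers, Timd4, Cd5l, Marco and Folr2 were also at 0 in some libraries, while Id3 (136 to 918 CPM), Nr1h3 (4.92 to 39.1 CPM), Cd163 (1.02 to 13.5 CPM) and Spic (0.184 to 11.5 CPM) had 3 counts or more in every library, and the list summed to 233 to 975 CPM. Csf1r, the receptor for macrophage colony-stimulating factor, was between 385 and 751 CPM and Emr1, the gene of F4/80, between 55.0 and 142 CPM. The cells are therefore called sorted liver macrophages here. In bulk libraries, fewer cells of a type and less RNA per cell cannot be told apart.

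The 250 bases before the annotated start were taken from RefSeq (GRCm38.p6) for 9 of the 10 genes, with Acat1 as the other. GENCODE M21, which gives the gene positions used here, places some starts further upstream, so that 121 of the 250 bases lie inside Ech1 and 165 of those of Hadhb inside Hadha or Hadhb itself. For 3 genes the part outside these GENCODE genes is printed, each 5′ to 3′ on the gene's own strand. Acadsb and Ech1 are shown because they passed the study's threshold between Veh and ND, and Hadhb because the stretch lies between it and Hadha, genes of a single enzyme complex that are transcribed away from each other, with 272 bases between their RefSeq starts and a shorter gap in GENCODE. Capitals mark the GC box GGGCGG, read on either strand, and the stretch of Ech1 printed holds none.
Acadsb, chr7:131410351-131410600, plus strand: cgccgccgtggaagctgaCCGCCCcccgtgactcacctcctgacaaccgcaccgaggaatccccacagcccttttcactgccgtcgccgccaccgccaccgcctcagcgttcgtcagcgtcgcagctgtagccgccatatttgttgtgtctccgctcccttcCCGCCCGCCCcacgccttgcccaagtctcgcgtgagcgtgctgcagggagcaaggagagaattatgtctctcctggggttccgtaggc
Ech1, chr7:28825088-28825216, plus strand: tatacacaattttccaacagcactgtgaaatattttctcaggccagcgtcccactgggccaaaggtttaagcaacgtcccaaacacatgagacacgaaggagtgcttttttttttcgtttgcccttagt
Hadhb, chr5:30155163-30155247, plus strand: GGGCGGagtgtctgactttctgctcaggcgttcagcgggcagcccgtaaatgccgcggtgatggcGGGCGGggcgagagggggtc

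The GC box occurred in 7 of the 9 whole upstream stretches and in 32.7% of 32851 mouse promoters of the same length, and a pair of the Acadsb matches overlapped each other. AAGATGGCG, the letters of a YY1 element, occurred only in Ech1 among the 9 and in 0.606% of all promoters. An NRF1 element, GCATGCGC, occurred only in Acadm among the 9 and in 2.26% of all. TCAAGGTCA, the letters bound by estrogen-related receptors, occurred in 0 of the 9 and in 0.387% of all promoters. These are matches of letters on both strands and say nothing of whether a factor was bound.

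All 10 genes passed the filter on low counts, which kept 11393 genes. Levels between genes were compared per kilobase of merged exon. Ech1, an auxiliary enzyme that shifts double bonds of unsaturated fatty acids, was highest, with a median of 44.8 CPM per kb over the 9 libraries (18.8 to 93.1). Acadl, Hadhb and Acadvl followed, with medians of 17.3, 17.0 and 14.6 CPM per kb. Acadm had 11.6, Hadha 10.9, Cpt1a 9.43 and Acat1 7.31 CPM per kb. Cpt2, the inner-membrane partner of Cpt1a, had a median of 1.45 CPM per kb (0.143 to 2.93), and Acadsb, the dehydrogenase of short branched chains, one of 0.654 (0.188 to 3.91). Neighbours in this order had overlapping ranges, with the exception of Acat1 and Cpt2, since the lowest library of Acat1 (3.78 CPM per kb) lay above the highest of Cpt2. The order was not the same in each group. By group means Acadl had 10.1 CPM per kb in ND, below Acadvl (23.2), Hadhb (14.0), Cpt1a (13.8), Hadha (12) and Acadm (11.1), but 19.2 in DPI, where Ech1 alone was higher. The genes also differed in how far their libraries spread. The highest library exceeded the lowest 1.86-fold for Acadm, 2.10-fold for Cpt1a and 2.53-fold for Hadha, but 7.40-fold for Acadl, 20.4-fold for Cpt2 and 20.8-fold for Acadsb, and the lowest library of Cpt2 held a single count.

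**Figure D1:**
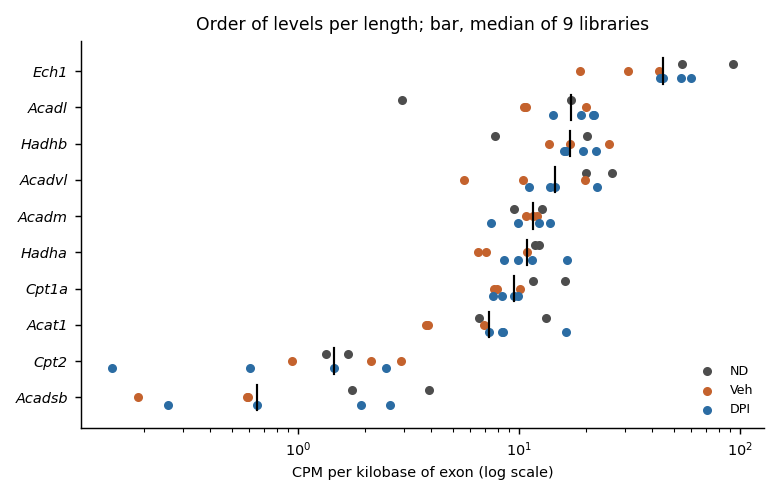
Level of each gene in CPM per kilobase of exon (log axis), 1 point a library coloured by group, with a bar at the median of 9 libraries. Ech1 stood at the top with a median of 44.8, and Cpt2 and Acadsb lay at the bottom with 1.45 and 0.654.

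The comparisons were Veh against ND, in which the diet and the vehicle injections cannot be told apart, DPI against Veh for the compound on the high-fat diet, and DPI against ND. Veh libraries enter the first 2 and ND libraries the first and the last, so the comparisons are not independent of each other. A gene was called when edgeR gave an unadjusted p under 0.05 and a change of at least 2-fold, the study's own threshold, and p adjusted by the Benjamini-Hochberg method over all tested genes is given beside it. SE is the standard error of a fitted value.

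On the high-fat diet with vehicle, 2 of the 10 genes were lower than on the normal diet at this threshold, Ech1 and Acadsb, and 0 were higher. Across all tested genes 4.63% were called lower and 7.03% higher, 11.7% in all. Fold changes were negative for 6 of the 10 genes and the median log2 fold change was -0.62, against 0.03 over all tested genes, of which 51.5% were positive. The Veh libraries all lay below both ND libraries for 5 of the 10 genes, Cpt1a, Acadvl, Acadsb, Hadha and Ech1, where 12.5% of all tested genes did so. None of the 10 passed the adjustment, with adjusted p between 0.242 and 0.981 (edgeR), while 7 of all tested genes did (0.0614%).

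With DPI on the high-fat diet, 1 of the 10 genes was higher than with vehicle, Acat1, and 0 were lower. The background was 1.5% of tested genes called higher and 1.34% called lower, 2.84% in all. Fold changes were positive for 7 of the 10 genes, with a median of 0.42 on the log2 scale, against 0.04 over all tested genes, of which 53.1% were positive. All 4 DPI libraries lay above all 3 Veh libraries for Ech1 and Acat1, where 3.38% of all tested genes did so, and 0 of the 10 genes lay the other way, where 2.48% of all did. Adjusted p was 0.999 for each of the 10 (edgeR). Over all tested genes edgeR gave 0 with an adjusted p under 0.05 and 470 (4.13%) with an unadjusted p under 0.05, and DESeq2 gave 2 adjusted calls.

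Between DPI and ND, 0 of the 10 genes were called by edgeR and 0 had an unadjusted p under 0.05, as DESeq2 also gave 0 calls, where 9.29% of all tested genes were called, 6.24% higher and 3.05% lower, and 10.7% had an unadjusted p under 0.05. Fold changes were negative for 7 of the 10 and positive for 3, with a median of -0.20 on the log2 scale against 0.04 over all tested genes, of which 52.1% were positive. Adjusted p lay between 0.500 and 0.991 (edgeR), and 1 of all tested genes passed the adjustment (0.00878%). Cpt1a alone had all DPI libraries below both ND libraries, where 8.5% of all tested genes did so.

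**Figure D2:**
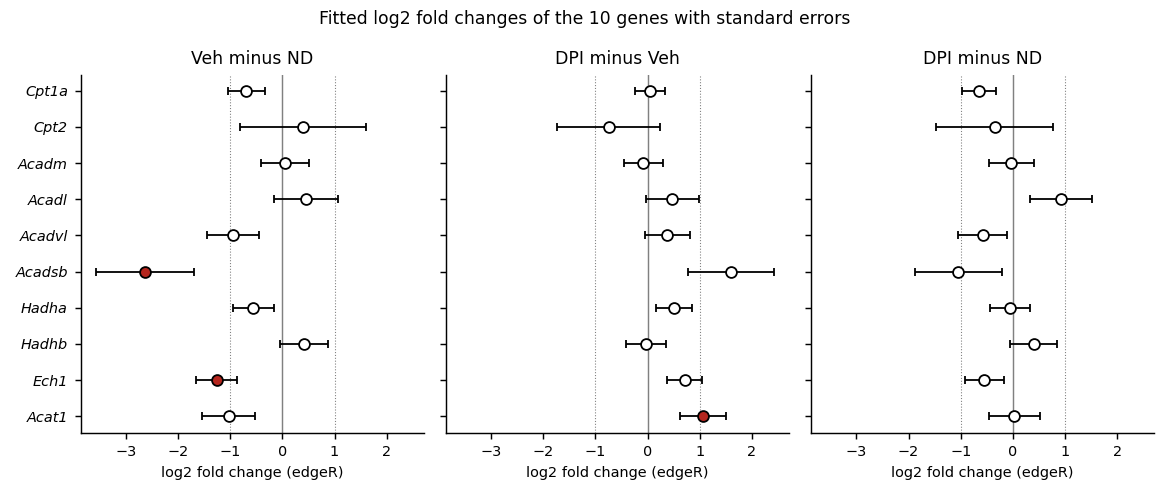
Fitted log2 fold change of each of the 10 genes in the 3 comparisons, with edgeR's SE as a bar. Ech1 (-1.26) and Acadsb (-2.64) were called in Veh against ND and Acat1 (1.06) in DPI against Veh, while Acadm in Veh against ND (0.05), Hadhb in DPI against Veh (-0.02) and Acat1 in DPI against ND (0.03) changed sign when libraries were scaled by library size alone.

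The summed level of the 10 genes was 375 and 385 CPM in ND, 229.5, 304 and 210.1 CPM in Veh and 380.1, 305, 329 and 290.3 CPM in DPI. Veh libraries lay below both ND libraries, and the highest Veh library (304) just below the second lowest DPI library (305), so Veh and DPI overlapped. The means were 380 ± 7.27 (SD, n = 2), 248 ± 49.7 (SD, n = 3) and 326 ± 39.4 CPM (SD, n = 4). Scaled by library size alone they were 435 ± 8.18, 234 ± 66.2 and 323 ± 59.5 CPM (SD). The same scaling shifted the all-gene median to -0.26 on the log2 scale in Veh against ND, 0.12 in DPI against Veh and -0.17 in DPI against ND, and of the genes it called in Veh against ND 539 were higher and 933 lower, in place of 801 and 528. Both scalings kept Rn45s in the library totals. Its share was 34.6% and 31.1% in ND, 36.9%, 27.0% and 44.5% in Veh and 27.7%, 42.6%, 30.0% and 30.0% in DPI. The part of Rn45s in the summed levels was not tested.

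Some markers of other liver cells differed between the groups as these sums did. Of 20 hepatocyte markers, Cps1 and Tat were at 0 in every library and 18 were tested, and all 18 had negative fold changes in Veh against ND, 7 of them called lower, with a median of -2.77 on the log2 scale. Their summed level was 467 and 611 CPM in ND, 176 to 216 CPM in Veh and 213 to 363 CPM in DPI. Without Trf, the transferrin gene, which had 127 to 151 CPM in Veh and 299 CPM in the first DPI library, the sums were 282 and 399 CPM in ND, 31.7 to 84.8 CPM in Veh and 57.9 to 143 CPM in DPI. Alb, the albumin gene, had 56.1 and 107 CPM in ND, 21.8, 5.44 and 9.66 in Veh and 19.6, 31.6, 11.9 and 17.0 in DPI. In DPI against Veh 14 of the 18 were positive and 3 negative, 1 was called higher and the median was 0.69, and in DPI against ND 7 were called lower. The 7 endothelial markers summed to 120 and 185 CPM in ND, 9.43 to 12.9 in Veh and 4.27 to 139 in DPI, with 3 called lower and 1 higher in Veh against ND and 2 called higher in DPI against Veh. The 9 general macrophage markers in the table had a median of -0.62 in Veh against ND, with 8 negative and 2 called lower, and of 0.53 in DPI against Veh, with 2 called higher. The 7 cholangiocyte and stellate markers, of which 2 were tested, summed to 5.28 and 9.90 CPM in ND, at most 0.725 CPM in Veh and 1.11 to 10.2 CPM in DPI, with 1 called lower in Veh against ND and 1 higher in DPI against Veh. The 5 dendritic cell markers had medians of -0.53 and 0.23 in these comparisons, with none called. Some lists did not follow the sums. The 5 monocyte markers in the table summed to 3490 and 3429 CPM in ND, 3350 to 4276 CPM in Veh and 2635 to 5759 CPM in DPI. In Veh against ND Ly6c2 was called higher (1.04) and Ccr2 lower (-1.23), and none was called in DPI against Veh. The 10 Kupffer cell markers, 6 of them tested, had medians of 0.30 and 0.07 in these comparisons. Id3 was called higher in the first and Spic lower in the second. Eosinophil markers summed to at most 3.26 CPM in ND and Veh and to 110.5, 110.7, 0.371 and 66.0 CPM in DPI, and all 4 tested were called higher in DPI against Veh. Neutrophil markers summed to 1209 and 3056 CPM in ND, 2260 to 3570 CPM in Veh and 767 to 5098 CPM in DPI, with 1 of 9 called higher and 2 lower in Veh against ND and 3 higher in DPI against Veh. The 5 B cell markers were all positive in Veh against ND, with a median of 1.55 and 1 called higher, and the 8 tested T and NK cell markers had a median of 0.36 there, with 1 called higher. The part of any of these cells in the levels of the beta-oxidation genes was not tested.

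**Figure D3:**
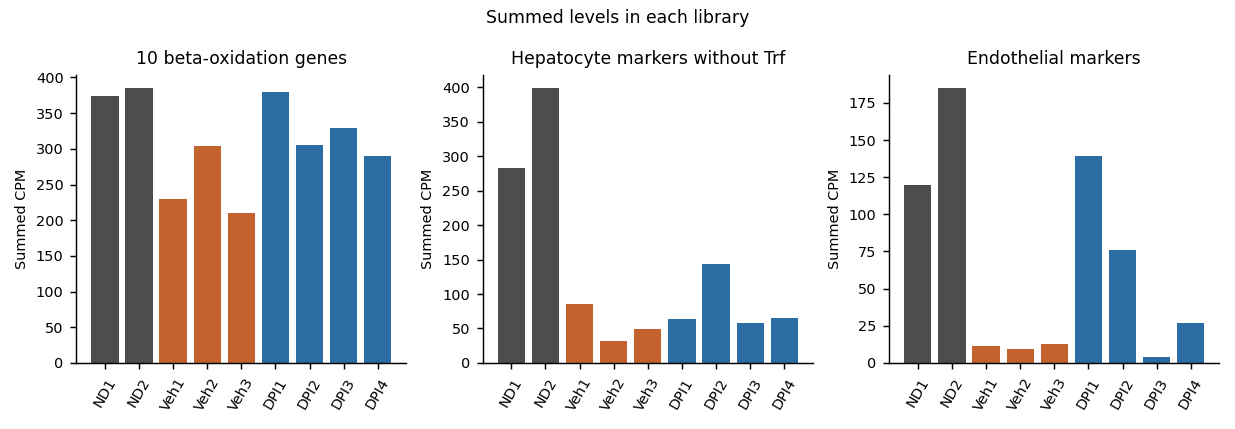
Summed CPM in each of the 9 libraries for the 10 beta-oxidation genes, for hepatocyte markers without Trf and for endothelial markers, bars from 0 coloured by group. The 10 genes summed to 375 and 385 CPM in ND and to 210.1 to 304 CPM in Veh. The 19 hepatocyte markers without Trf summed to 282 and 399 CPM in ND and 31.7 to 84.8 CPM in Veh.

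The carnitine shuttle was represented by Cpt1a and Cpt2. Cpt1a (chromosome 19 from 3322334 to 3385733, plus strand) encodes carnitine palmitoyltransferase 1A of the outer mitochondrial membrane, the rate-controlling entry step. It had 69.4 and 49.9 CPM in ND, 34.2, 33.2 and 43.6 CPM in Veh and 42.7, 36.0, 33.0 and 40.7 CPM in DPI. Both ND libraries were above all 7 libraries from the high-fat diet, and Veh and DPI covered nearly the same range. The log2 fold change was -0.69 (SE 0.35) for Veh against ND, 0.05 (SE 0.30) for DPI against Veh and -0.64 (SE 0.33) for DPI against ND, with unadjusted p of 0.0689, 0.881 and 0.0696 (edgeR). Of the alternatives run, scaling by library size alone was the one under which the first was called (adjusted p = 0.274, edgeR). Cpt2 (chromosome 4 from 107903981 to 107923610, minus strand) encodes the transferase of the inner membrane that re-forms the acyl-CoA. It was among the least abundant of the 10, with 22 and 17 counts in ND, 10, 28 and 28 in Veh and 56, 1, 32 and 14 in DPI. In CPM the groups overlapped throughout, with 3.59 ± 0.588 (SD, n = 2) in ND, 4.75 ± 2.38 (SD, n = 3) in Veh and 2.78 ± 2.46 (SD, n = 4) in DPI. Fitted log2 fold changes were 0.40, -0.75 and -0.35 in the 3 comparisons, with SE of 1.21, 1.00 and 1.13. Each was smaller than its SE.

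The first oxidation is made by acyl-CoA dehydrogenases that differ in the chain length they prefer. Acadvl (chromosome 11 from 70010183 to 70015411, minus strand), for very long chains, had 43.7 and 56.8 CPM in ND, 22.6, 43.0 and 12.1 CPM in Veh and 48.7, 31.6, 24.1 and 29.9 CPM in DPI. All 3 Veh libraries were below ND, the highest of them by less than 1 CPM, and DPI overlapped both groups. Its log2 fold change was -0.95 (SE 0.50, unadjusted p = 0.0812, edgeR) for Veh against ND and 0.37 (SE 0.43) for DPI against Veh. The first value was called with scaling by library size alone (-1.19) and without the second Veh library (-1.53). An exon of Acadvl shares 573 bases with an exon of Dvl2 on the opposite strand, and the strand setting of the counting is not given in the sources used here, so reads of the overlap may belong to either gene.

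Acadl (chromosome 1 from 66830839 to 66863277, minus strand), for long chains, showed the largest ratio between the 2 ND libraries among the 10 genes, with 5.65 and 33.1 CPM. It had 20.6, 38.3 and 20.1 CPM in Veh and 36.6, 41.8, 41.4 and 27.1 CPM in DPI. The first ND library was thus below every other library, and the second lay within the range of Veh and of DPI. The log2 fold change was 0.45 (SE 0.61) for Veh against ND, 0.48 (SE 0.51) for DPI against Veh and 0.92 (SE 0.60) for DPI against ND, with unadjusted p of 0.478, 0.367 and 0.145 (edgeR). Its value against ND rested on which ND library was used. Without the first ND library it was -0.31 for Veh and 0.16 for DPI, and without the second it was 2.25 (adjusted p = 0.0609) and 2.72 (adjusted p = 0.0306, edgeR with Benjamini-Hochberg adjustment), both called, in fits where the remaining ND library is assumed to vary like the other groups.

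Acadm (chromosome 3 from 153922357 to 153944632, minus strand), for medium chains, was the steadiest of the 10. It had 19.5 and 26.0 CPM in ND, 22.0, 23.8 and 24.8 CPM in Veh and 20.2, 25.1, 15.2 and 28.4 CPM in DPI, and the ranges of the 3 groups overlapped. Its log2 fold change was 0.05 (SE 0.45) for Veh against ND, which turned to -0.24 when libraries were scaled by total alone, and -0.08 (SE 0.38) for DPI against Veh. A 2-fold change in either direction lies more than 2 of these standard errors away from either value.

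Acadsb (chromosome 7 from 131410601 to 131448944, plus strand), for short branched chains and a step of isoleucine breakdown, had the largest fitted difference of the 10. It had 145 and 63 counts in ND, 18, 7 and 16 in Veh and 287, 13, 70 and 17 in DPI. In CPM these were 26.4 and 11.8 in ND, 4.00, 1.27 and 3.96 in Veh and 17.6, 4.42, 13 and 1.73 in DPI. All Veh libraries were below both ND libraries, and the DPI libraries ran from within the Veh range up into the ND range. Acadsb was 6.22-fold lower in Veh than in ND, a log2 fold change of -2.64 (SE 0.93, unadjusted p = 0.0140, adjusted p = 0.289, edgeR with Benjamini-Hochberg adjustment). Adjusted p ranged from 0.0846 to 0.502 over its alternatives. The call was lost without the first ND library (-1.93) and without the second Veh library (-2.26, unadjusted p = 0.0515, edgeR). For DPI against Veh the log2 fold change was 1.59 (SE 0.82, unadjusted p = 0.0737, edgeR), which was called without the fourth DPI library (1.94), and for DPI against ND it was -1.04 (SE 0.84).

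**Figure D4:**
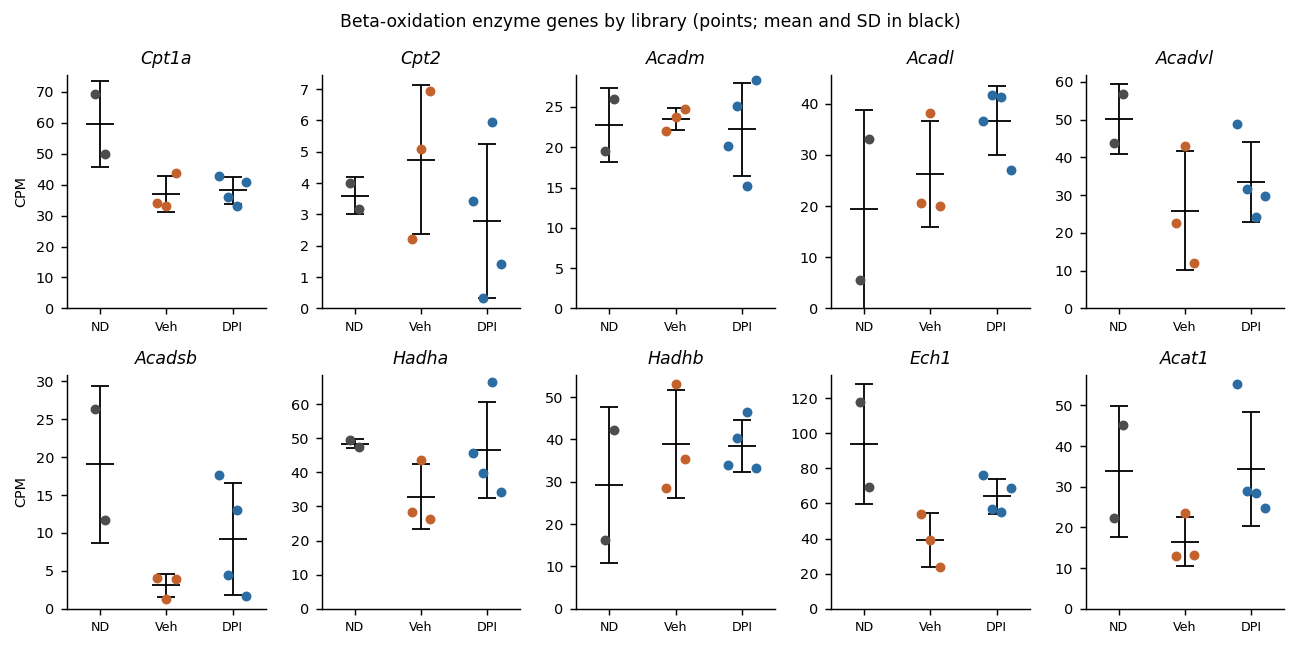
CPM of each gene in every library (coloured points) by group, with the mean and SD in black and a separate axis from 0 for each gene. For Ech1 and Acadsb the 3 Veh points lie below both ND points, for Acat1 the 4 DPI points lie above the 3 Veh points, and Acadl splits the ND libraries at 5.65 and 33.1 CPM.

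Hadha and Hadhb encode the alpha and beta subunits of the mitochondrial trifunctional protein, which carries out the hydration, the following dehydrogenation and the thiolysis of long chains. Hadha (chromosome 5 from 30118304 to 30155162, minus strand) had 49.4 and 47.4 CPM in ND, 28.4, 43.7 and 26.3 CPM in Veh and 45.8, 39.7, 66.4 and 34.3 CPM in DPI. Veh libraries lay below ND without overlap, and DPI libraries lay on both sides of ND. The log2 fold change was -0.56 (SE 0.40, unadjusted p = 0.180, edgeR) for Veh against ND and 0.50 (SE 0.34, unadjusted p = 0.159, edgeR) for DPI against Veh. An exon of Hadha shares 75 bases with one of Garem2 on the opposite strand. Hadhb (chromosome 5 from 30155248 to 30184593, plus strand), its divergent neighbour, did not show the same order. It had 16.2 and 42.2 CPM in ND, 28.4, 53.1 and 35.4 CPM in Veh and 33.9, 40.4, 46.4 and 33.2 CPM in DPI, so the 2 ND libraries enclosed most of the others. Its log2 fold change was 0.42 (SE 0.47) for Veh against ND, and for DPI against Veh it was -0.02 (SE 0.38), which turned to 0.04 with scaling by library size alone. Without the second ND library Hadhb was called higher, at 1.30 in Veh and 1.27 in DPI.

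The balance of the transcripts of these subunits, not of the proteins, was read from the ratio of Hadha to Hadhb per length within each library. The ratio was 1.58 and 0.582 in ND, 0.518, 0.426 and 0.384 in Veh and 0.699, 0.509, 0.741 and 0.535 in DPI. All Veh ratios were below both ND ratios, the DPI ratios overlapped both groups, and the first ND library stood apart from all others. The same library stood apart in the ratio of Acadvl to Acadl, which was 6.84 and 1.52 in ND, 0.969, 0.993 and 0.535 in Veh and 1.18, 0.668, 0.515 and 0.973 in DPI, with 31 counts of Acadl behind the first value.

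Ech1 (chromosome 7 from 28825217 to 28832247, plus strand) encodes a dienoyl-CoA isomerase that lets unsaturated fatty acids enter the cycle. It had 118 and 69.5 CPM in ND, 54.2, 39.4 and 23.8 CPM in Veh and 75.9, 56.7, 54.9 and 68.7 CPM in DPI. Veh was below ND and below DPI without overlap, the gap between the highest Veh library (54.2) and the lowest DPI library (54.9) being small, and DPI overlapped ND. Ech1 was 2.40-fold lower in Veh than in ND, a log2 fold change of -1.26 (SE 0.39, unadjusted p = 0.00648, adjusted p = 0.242, edgeR with Benjamini-Hochberg adjustment). Adjusted p ranged from 0.0590 to 0.512 over its alternatives, and the change lost its call without the first ND library (-0.82) and without the third Veh library (-0.95). For DPI against Veh the log2 fold change was 0.71 (SE 0.34, unadjusted p = 0.0542, edgeR), under the threshold, and without the first Veh library it was 1.01 and called. For DPI against ND it was -0.55 (SE 0.37).

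Acat1 (chromosome 9 from 53580522 to 53610382, minus strand) encodes the mitochondrial acetoacetyl-CoA thiolase, which acts in the last step of the cycle for the shortest chain, in isoleucine breakdown and in the making and use of ketone bodies. It had 22.4 and 45.2 CPM in ND, 12.9, 23.6 and 13.1 CPM in Veh and 55.3, 28.9, 28.4 and 24.9 CPM in DPI. DPI libraries were all above Veh, the lowest of them by little more than 1 CPM over the second Veh library, and 3 of the 4 DPI libraries lay within 24.9 to 28.9 CPM while the first was at 55.3. The first DPI library was also the deepest, at 15585775 counts. It had the highest sums of its group for endothelial (139 CPM), hepatocyte (363 CPM), general macrophage (44629 CPM) and monocyte (5759 CPM) markers. Without Trf its hepatocyte sum was 63.4 CPM, below 143 CPM in the second DPI library. The part of these cells in the Acat1 value was not tested. Acat1 was 2.08-fold higher in DPI than in Veh, a log2 fold change of 1.06 (SE 0.44, unadjusted p = 0.0318, adjusted p = 0.999, edgeR with Benjamini-Hochberg adjustment). Adjusted p ranged from 0.720 to 1 over its alternatives, and the call was lost without the first DPI library (0.72), the first Veh library (0.89) or the third Veh library (0.90). For Veh against ND the log2 fold change was -1.03 (SE 0.51, unadjusted p = 0.0628, edgeR), which was called with scaling by library size alone (-1.29), without the first ND library (-1.43) and without the second Veh library (-1.38). For DPI against ND it was 0.03 (SE 0.48), a value that turned to -0.16 with scaling by library size alone and to -0.01 with RLE size factors or DESeq2.

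Other genes of mitochondrial beta-oxidation, a list of 24 of which 22 were tested, had a median log2 fold change of -0.38 in Veh against ND, with 9 positive and 13 negative, 1 called higher and 2 lower. In DPI against Veh the median was 0.41, with 18 positive and 4 negative, 3 called higher and 0 lower. In DPI against ND it was 0.08, with 1 called higher. None of the genes on this list or on the lists that follow had an adjusted p under 0.05 (edgeR). Acot13, a thioesterase of acyl-CoA, was higher in Veh than in ND, with 0.546 and 2.62 CPM in ND and 11.1, 17.6 and 17.3 CPM in Veh, a log2 fold change of 3.27 (SE 0.80, adjusted p = 0.14, edgeR). It was 2.93 (SE 0.77) in DPI against ND. Mcee, an epimerase for the propionyl-CoA left by odd chains, was lower in Veh, with 29.5 and 12.1 CPM in ND and 4.66, 4.72 and 4.71 CPM in Veh, a log2 fold change of -2.14 (SE 0.68). Acad12, a dehydrogenase of the same family as Acadm, had 42 and 35 counts in ND, 0 in every Veh library and 94, 4, 0 and 13 in DPI. Against a floor of 3 counts per library, Veh was at least 10.9-fold lower than ND. It was called higher in DPI than in Veh, though the third DPI library was at 0 like Veh and only the first held more than 13 counts. Crat, carnitine acetyltransferase, had 0, 5.44 and 8.67 CPM in Veh and 27.2, 25.8, 17.8 and 8.37 CPM in DPI, a log2 fold change of 2.07 (SE 0.96, unadjusted p = 0.0492, edgeR). Acad11, another dehydrogenase, had 1, 0 and 0 counts in Veh and 119, 8, 0 and 7 in DPI and was called higher, though only the first DPI library held more than 8 counts. Cpt1b and Cpt1c, the muscle and brain forms of the first transferase, had at most 10 and 8 counts in any library and were not tested.

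Fatty acid uptake and activation, 19 genes of which 12 were tested, gave medians of 0.11 in Veh against ND, with 2 called higher, -0.17 in DPI against Veh, with 2 called lower, and -0.15 in DPI against ND, with 1 called higher. Cd36, the fatty acid translocase, had 27.0 and 28.6 CPM in ND, 110.5, 88.0 and 81.5 CPM in Veh and 22.5, 37.7, 47.1 and 73.6 CPM in DPI. It was higher in Veh than in ND, with a log2 fold change of 1.75 (SE 0.47, unadjusted p = 0.00228, edgeR), and lower in DPI than in Veh, at -1.04 (SE 0.36, unadjusted p = 0.0124, edgeR), with no overlap in either comparison. Acsf2, an acyl-CoA synthetase, was lower in DPI than in Veh, at -1.33 (SE 0.55). Acsl3, a long-chain synthetase, was at 0 counts in both ND libraries, with 5, 10 and 2 counts in Veh and 6, 1, 14 and 61 in DPI, and was called higher in both, though only the fourth DPI library held more than 14 counts.

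Peroxisomal beta-oxidation, 16 genes of which 12 were tested, gave medians of -0.59, -0.04 and -0.42 in Veh against ND, DPI against Veh and DPI against ND, with 2, 0 and 2 called higher and 0 lower. Acox3, an acyl-CoA oxidase, was higher in Veh than in ND, at 1.76 (SE 0.60), and in DPI than in ND, at 1.48 (SE 0.57). Pex11a, a peroxisome division factor, was at 0 counts in both ND libraries, with 12, 6 and 10 counts in Veh and 14, 4, 8 and 1 in DPI. Against a floor of 3 counts per library it was at least 3.75-fold higher in Veh and at least 1.72-fold higher in DPI. Its call in DPI against ND rested on the fitted value, since that bound is under 2-fold. Scp2, a peroxisomal thiolase and lipid carrier, had an unadjusted p of 0.0134 (edgeR) in DPI against Veh but a log2 fold change of 0.76 (SE 0.27), under 2-fold.

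Regulators of the pathway, 15 genes of which 10 were tested, gave medians of -0.52, -0.01 and -0.76 in the same 3 comparisons, with 0 called higher and 2 lower, 0 and 1, and 1 and 2. Rxra, the partner of the PPAR receptors, and Esrra, estrogen-related receptor alpha, were lower in Veh than in ND, at -1.83 (SE 0.83) and -1.53 (SE 0.70), and in DPI than in ND, at -1.89 (SE 0.76) and -1.61 (SE 0.64). For both the first ND library was the high one, with 47.0 CPM of Rxra against 13.4 in the second, and 28.6 CPM of Esrra against 7.66. Ppargc1b, a coactivator of mitochondrial genes, was lower in DPI than in Veh, at -2.0 (SE 0.86), and Nrip1, a corepressor, was higher in DPI than in ND, at 3.08 (SE 1.19). Ppara and Ppargc1a, the best known activators of the pathway in hepatocytes, had at most 6 and 3 counts in any library and were not tested.

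Ketone body and branched-chain acyl-CoA enzymes, 16 genes of which 14 were tested, gave medians of 0.20, 0.47 and 0.27, with 1 called higher in Veh against ND, 0 called in DPI against Veh, and 2 called higher and 1 lower in DPI against ND. Ivd, isovaleryl-CoA dehydrogenase, was the lower one, at -1.70 (SE 0.78). Bckdhb, a subunit of the branched-chain keto acid dehydrogenase, had 1 and 0 counts in ND and 172, 21, 13 and 13 in DPI. Aldh6a1, of valine breakdown, had 0 and 1 counts in ND, 4, 12 and 11 in Veh and 92, 8, 10 and 25 in DPI. Mitochondrial content was read from 14 genes of the respiratory chain and of mitochondrial maintenance, all tested, and none was called in any comparison. Their medians were -0.22, 0.22 and 0.12, beside -0.62, 0.42 and -0.20 for the 10 beta-oxidation enzymes. Uqcrc1, a subunit of complex III, had a log2 fold change of -0.75 (SE 0.32, unadjusted p = 0.0364, edgeR) in Veh against ND, under 2-fold.

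**Figure D5:**
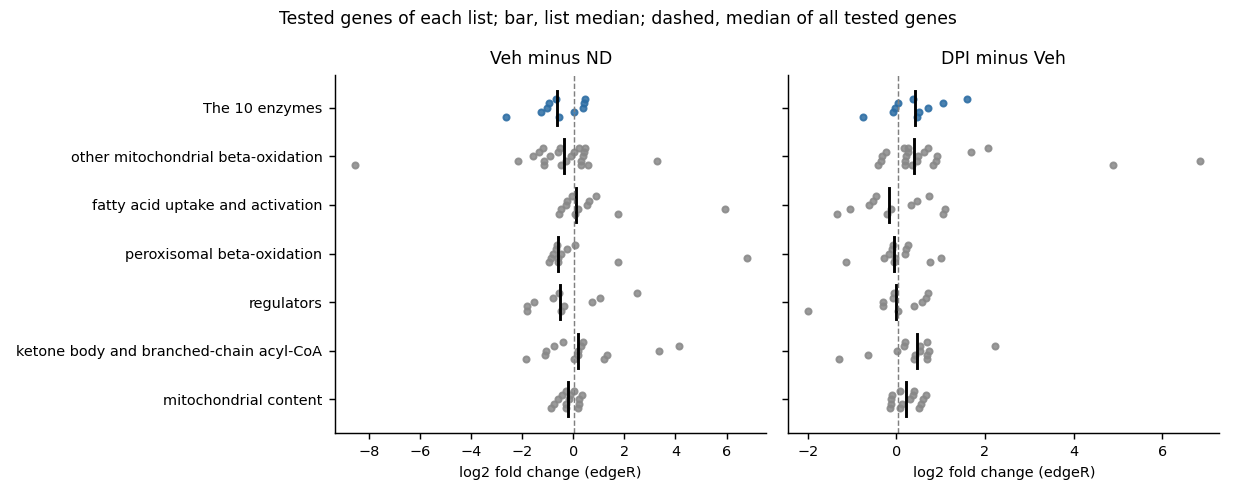
Fitted log2 fold change of every tested gene (points) in the 10 enzymes and in 6 other lists, for Veh against ND and DPI against Veh, with a bar at each list's median and a dashed line at the median of all tested genes. The 10 enzymes have medians of -0.62 and 0.42, the other mitochondrial beta-oxidation genes of -0.38 and 0.41, and genes far out on either side include some at 0 counts in a group, whose fitted values are not bounds.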

How the data were processed

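The 9 RNA-seq libraries were made from poly(A) RNA of sorted mouse liver macrophages. The authors aligned the reads to mm10 and deposited raw counts per gene, made with bowtie2 and RSEM by the study's methods, while the submitters' processing notes name TopHat2 and edgeR. The values were whole numbers, with no normalization. Groups and numbers came from the sample labels. Counts were analysed with edgeR 4.0.16 in R 4.3.3 (filterByExpr, TMM, glmQLFit, glmQLFTest), with the 3 groups in a single fit, a common biological coefficient of variation of 0.650 and Benjamini-Hochberg adjustment over 11393 genes. A gene was called at an unadjusted p under 0.05 and a change of 2-fold or more. The test was checked on simulated counts with large planted changes in DPI against Veh alone. Changes near 2-fold and comparisons with ND were not checked in this way. Totals of 3534325 to 15585775 counts set the precision, and floors of 3 counts cover counting error only, since amplified reads were not told apart by molecular identifiers. A group at 0 was compared at that floor, per library. Gene positions and exon lengths came from GENCODE M21 (GRCm38) and promoters from RefSeq GRCm38.p6.

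The 10 genes and the other lists were chosen with earlier results of these data known. All 10 are named. From each other pathway list at most 3 genes with an unadjusted p under 0.05 in a comparison were named, by smallest p, along with genes of interest that were too low to be tested, which were chosen after their counts were seen, and defining markers. Scaling was also done by RLE or by library size alone, the filter was dropped or set to at least 10 counts in every library, and further alternatives were DESeq2 1.42.0, edgeR's likelihood ratio test, fits of the 2 groups compared, the replicate number as a block, removal of Rn45s, thinning to the smallest total, and each library left out. Same-numbered libraries of different groups were paired by nothing but the number.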

Additional observations from a re-analysis of the deposited data

Results flagged for a closer look

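Acat1 in the DPI group was marked because its highest library, the first, lay far from the other 3, at 55.3 CPM against 24.9 to 28.9 CPM. The gap exceeded Dixon's 95% critical value of 0.829 for 4 samples, which chance alone passes in about 1 of 20 groups, and the other 9 genes examined in the same way in this group did not exceed it. Without that library the log2 fold change of DPI against Veh was 0.72 (standard error 0.45) in place of 1.06.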

How the results depend on the processing

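The number of the 10 genes called, 2 in Veh against ND, 1 in DPI against Veh and 0 in DPI against ND, was the same with RLE size factors, no filter, DESeq2, edgeR's likelihood ratio test, fits of 2 groups, Rn45s removed and thinned counts. It became 5 in Veh against ND with library size alone, and 1 with at least 10 counts in every library, a filter that left out Acadsb and Cpt2. Leaving out single libraries gave 1 to 4 calls in Veh against ND, 0 to 2 in DPI against Veh and 0 to 2 in DPI against ND. Calls in Veh against ND fell to 1 without the first ND library (Acat1, and neither Ech1 nor Acadsb) or the third Veh library, and rose to 4 without the second ND library. In DPI against Veh they fell to 0 without the third Veh or the first DPI library, and were 2 without the fourth DPI library, while without the first Veh library Ech1 replaced Acat1. In DPI against ND they were 2, Acadl and Hadhb, without the second ND library.

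With the replicate number as a block there were 2 calls in Veh against ND, 2 in DPI against Veh (Acadsb and Acat1) and 1 in DPI against ND (Acadl). The numbers did not pair the samples, since deviations of same-numbered libraries correlated at -0.03 to 0.10. The block turned Hadhb in DPI against Veh to 0.11, Cpt2 in Veh against ND to -0.0156 and Hadha in DPI against ND to 0.0136.

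Other reversed log2 fold changes were all smaller than their standard errors as first fitted. With library size alone Acat1 in DPI against ND became -0.16, Acadm in Veh against ND -0.24 and Hadhb in DPI against Veh 0.0378. Acat1 in DPI against ND also became -0.00935 with RLE size factors and -0.00885 with DESeq2, and thinning made Hadha in DPI against ND 0.00377. With single libraries left out, signs reversed in Veh against ND for Acadl (-0.31 to 2.25), Acadm (-0.13 to 0.30) and Hadhb (-0.10 to 1.30), in DPI against Veh for Acadm (-0.22 to 0.0611), Cpt1a (-0.0284 to 0.17) and Hadhb (-0.22 to 0.27), and in DPI against ND for Acadm (-0.22 to 0.22), Acat1 (-0.38 to 0.65), Cpt2 (-0.99 to 0.033), Hadha (-0.28 to 0.0663) and Hadhb (-0.13 to 1.27). The cause was not tested.

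Over all genes, calls in Veh against ND were 726 with at least 10 counts in every library and 2634 without the second ND library, in place of 1329. In DPI against Veh they were 602 with no filter, 202 with at least 10 counts and 187 to 521 with single libraries left out, in place of 324, and in DPI against ND 527 with at least 10 counts and 2626 without the second ND library, in place of 1058. Adjusted calls were 312, 2 and 219 with DESeq2. With 2 ND libraries that differed in Acadl and Hadhb, differences from ND rest on few samples. Cpt2 and Acadsb had 1 and 7 counts in their lowest library, where counting error is largest.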
